A study of Mus musculus and unidentified plasmid with 60 samples.

Results

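The 4 genes H2-Ab1, H2-Aa, H2-Eb1 and Cd74 belong to the MHC class II pathway, in which a professional antigen-presenting cell displays peptides to CD4+ T cells. H2-Ab1 and H2-Aa encode the beta and alpha chains of the I-A molecule, H2-Eb1 encodes the beta chain of I-E, and Cd74 encodes the invariant chain that guides new class II molecules to the endosome. The RFX family of transcription factors recognises a DNA element called the X box. At class II promoters a complex of RFX5, RFXAP and RFXANK binds the X box beside CREB at the X2 box and NF-Y at the Y box, and the coactivator CIITA, which does not itself bind DNA, is recruited to the assembled factors. CIITA is made in dendritic cells, B cells and activated macrophages and microglia, and neurons are not known for class II expression.

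The regions described here were chosen by position alone. They are those that overlap chromosome 17 from 34385000 to 34475000 (90 kb, for H2-Ab1, H2-Aa and H2-Eb1) or chromosome 18 from 60940000 to 60995000 (55 kb, for Cd74), in the mouse build mm9. Of 295409 regions in the 3 lists of the series, 24 met this rule, with 14 of 173231 in the 0 h list, 10 of 122135 in the 1 h list and 0 of 43 in the WT list. The windows also take in sequence between and beside the genes. No gene positions in mm9 were used, so a region is given by its coordinates and not by the gene, promoter or intron it lies in. In the RefSeq gene order of another build, GRCm38.p6, H2-Ab1 follows H2-Ob and precedes H2-Aa, H2-Eb1 and H2-Eb2, and Cd74 stands between Rps14, a ribosomal protein gene, and Tcof1, which encodes a nucleolar protein.

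The series holds 60 samples, of which 8 are ChIP-seq libraries and 52 are reporter RNA, plasmid and barcode libraries not used here. All ChIP-seq libraries came from cortical neurons of CD-1 embryos taken on embryonic day 16 and grown to day in vitro (DIV) 7. The 0 h group (2 libraries) and the 1 h group (2 libraries) carried a dominant-negative RFX construct (RFX-DN), delivered by lentivirus on DIV 2, and activity was blocked overnight from DIV 6 in both groups by tetrodotoxin and DL-2-amino-5-phosphonopentanoic acid, inhibitors of sodium channels and NMDA receptors. The 1 h group was then depolarized with 55 mM KCl, a standard substitute for strong neuronal activity, for 1 h, and the 0 h group was not. A group titled WT (2 libraries) has no depolarization time in its labels. Lentivirus on DIV 2 and silencing from DIV 6 are recorded for it as for the RFX-DN groups. It is unclear whether these neurons had the construct, because the single ChIP-seq protocol text mentions transduction for every sample. The 2 input libraries were not used here.

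An antibody against the MYC tag was used, so the lists show where the tagged, introduced protein was found and not where native RFX proteins sat. The labels do not say which RFX gene the construct came from. No RNA was measured from the class II genes in the lists, so their silence in these cultures was not tested, nor was the presence of cells other than neurons. Each list holds combined regions of 2 libraries, with the position of a centre in a first column, a second column or both. Each column was taken to give 1 replicate's peak centres. The columns name no library, so columns of different lists are not matched by their order. The labels do not state that a group's libraries were made from separate cultures, and their spread may be technical.

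The promoters of the members show why RFX binding is of interest here. RefSeq promoter windows were matched for 2 of the 4 genes, H2-Aa and H2-Eb1, and not for H2-Ab1 and Cd74. In both, the 250 bases before the start held, in order on the gene's strand, a 6-base part of the X box, an X2 core and a Y-box core. These stretches are shown because they carry that arrangement, together with those of the neighbouring class II genes H2-Ob and H2-Eb2, in which the same search found it. Capitals mark the X part, the letters taken as the X2 core and the Y core, from left to right. All sequences run 5′ to 3′ on the strand of the gene.

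H2-Aa (GRCm38.p6, chr17:34287852-34287920, minus strand): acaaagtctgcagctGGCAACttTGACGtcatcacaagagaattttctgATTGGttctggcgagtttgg
H2-Eb1 (GRCm38.p6, chr17:34305760-34305827, plus strand): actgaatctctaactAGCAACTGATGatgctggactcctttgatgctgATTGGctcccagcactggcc
H2-Ob (GRCm38.p6, chr17:34238802-34238867, plus strand): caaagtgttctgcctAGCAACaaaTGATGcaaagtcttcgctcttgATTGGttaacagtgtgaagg
H2-Eb2 (GRCm38.p6, chr17:34325527-34325594, plus strand): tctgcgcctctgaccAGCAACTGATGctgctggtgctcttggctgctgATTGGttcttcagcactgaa

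H2-Aa has GGCAAC as its X part and TGACG as its X2 core, while the other promoters shown have AGCAAC and TGATG. As marked, with the X2 core nearest to the X part, the X2 core follows the X part directly in H2-Eb1 and H2-Eb2, after 2 bases in H2-Aa and after 3 bases in H2-Ob. The 6 marked letters are only a part of the X box, so a TGATG that touches them may still belong to the X box. The X2 label in H2-Eb1 and H2-Eb2, and their spacing, thus rest on the search rule and are not a measured difference between promoters. Within the search distance, H2-Eb1 holds 1 further, overlapping TGATG, so its core can also be read there. That TGATG lies 3 bases after the X part and 19 bases before ATTGG. H2-Eb1 also has a later TGATG, near ATTGG and beyond the search distance. H2-Eb2 holds 0 others within the search distance. From the marked X2 core to ATTGG, the reverse complement of CCAAT, there are 21 bases in H2-Aa, 22 in H2-Eb1 and in H2-Eb2, and 17 in H2-Ob. Each of these words is common alone. Searched on both strands of 32851 RefSeq promoter windows of 250 bases, CCAAT was found in 33.8%, TGATG in 34.5%, TGACG in 17.8%, AGCAAC in 12.2% and GGCAAC in 10.4%. A longer word, CTAGCAA, which overlaps AGCAAC, was in 2.73% and in the H2-Eb1 window but not in that of H2-Aa. The words GCAACAG (4.46%) and GTTACC (6.06%) were in neither.

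The ordered arrangement was rare. AGCAAC or GGCAAC followed within 12 bases by TGACG or TGATG, and then within 30 bases by ATTGG, was found on the gene's strand in 5 of the 32851 windows (0.0152%), those of H2-Aa, H2-Eb1, H2-Ob, H2-Eb2 and 1700048F04Rik. This pattern was set after the H2-Aa and H2-Eb1 sequences had been seen, so its presence in those is a description. Of 19 listed genes of class II assembly, class I peptide supply and the X- and Y-box factors, 16 had a promoter entry and 2 of them, H2-Ob and H2-Eb2, held the pattern. H2-Oa, H2-DMa, H2-DMb1 and H2-DMb2, whose products govern the loading of class II molecules with peptide, did not match these letters in this window. A match is a description of letters and not a bound site. These coordinates belong to another build than the bound regions and cannot be set against them.

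At 0 h the class II chain window on chromosome 17 held 8 regions listed for RFX-DN, 4 of them with centres in both columns. After 1 h of KCl it held 5, 1 of them with both. The Cd74 window held 6 regions at 0 h, 5 of them with both, and 5 at 1 h, 2 of them with both. RFX-DN was thus listed in both windows in silenced and in depolarized neurons. The WT list had no region in either window. Its nearest region lay 21.9 Mb away on chromosome 17 and 49.9 Mb away on chromosome 18, but WT regions were sparse everywhere, with one in 0.123% of 90 kb tiles and 0.0775% of 55 kb tiles on chromosomes 1 to 19.

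**Figure D1:**
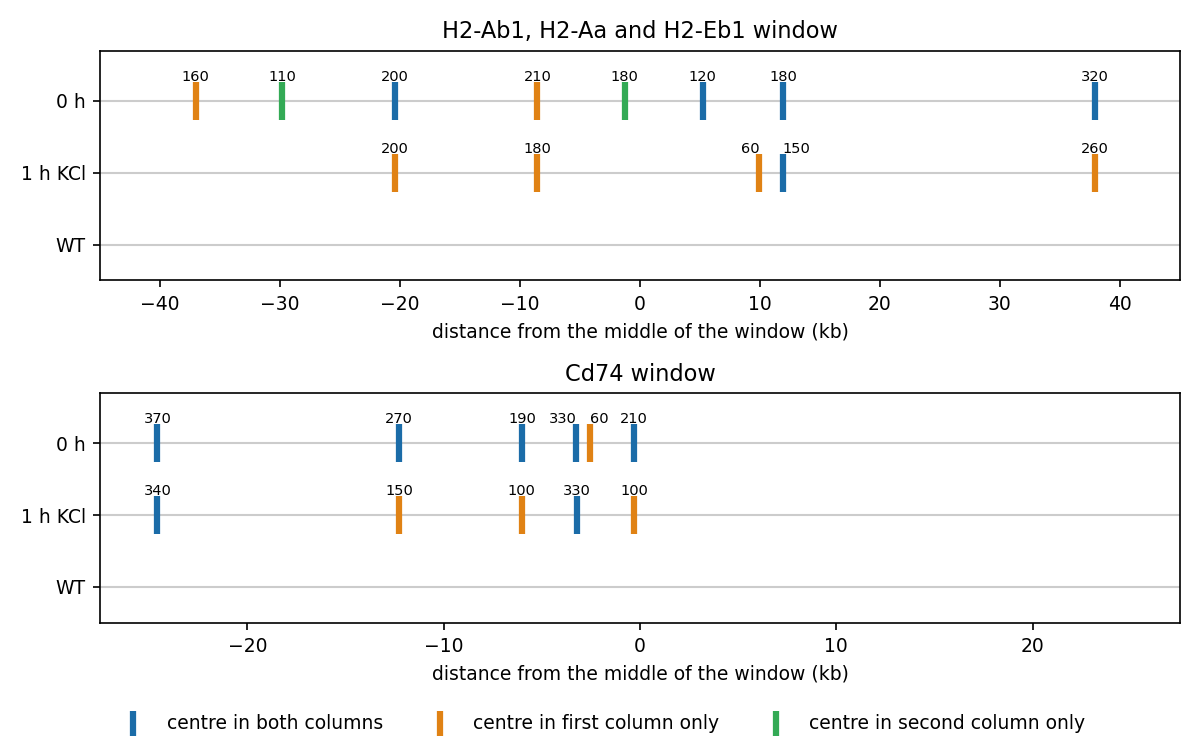
Regions of the 3 lists in the H2-Ab1, H2-Aa and H2-Eb1 window and in the Cd74 window, by distance from the middle of the window in kb. Each bar marks the middle of 1 region, is drawn wider than scale and is coloured by the replicate columns that hold a centre, and the number above it is its width in bases. Regions at 1 h stand under 0 h regions at 4 sites of the upper window and 5 of the lower, and the WT rows are empty.

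Counting all listed regions, with a centre in 1 column or in both, neither window was poor in regions beside the rest of the genome. In the class II chain window 88.9 regions per Mb were listed at 0 h, against 72.6 over chromosome 17, and 55.6 at 1 h, against 51.3. For the Cd74 window the density was 109 regions per Mb at 0 h, against 70.6 over chromosome 18, and 90.9 at 1 h, against 50.03. Among 26813 tiles of 90 kb on chromosomes 1 to 19, the median was 6 regions at 0 h (quartiles 3 and 9) and 4 at 1 h (quartiles 2 and 6), so both counts of the class II chain window lay between the quartiles. Among 43882 tiles of 55 kb, the median was 3 at 0 h (quartiles 2 and 6) and 2 at 1 h (quartiles 1 and 4). The Cd74 window's 6 regions at 0 h equalled the upper quartile, and its 5 at 1 h exceeded it, with 11.3% of tiles holding more. The windows were placed on genes and the tiles were not, and these counts were not tested against each other.

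**Figure D2:**
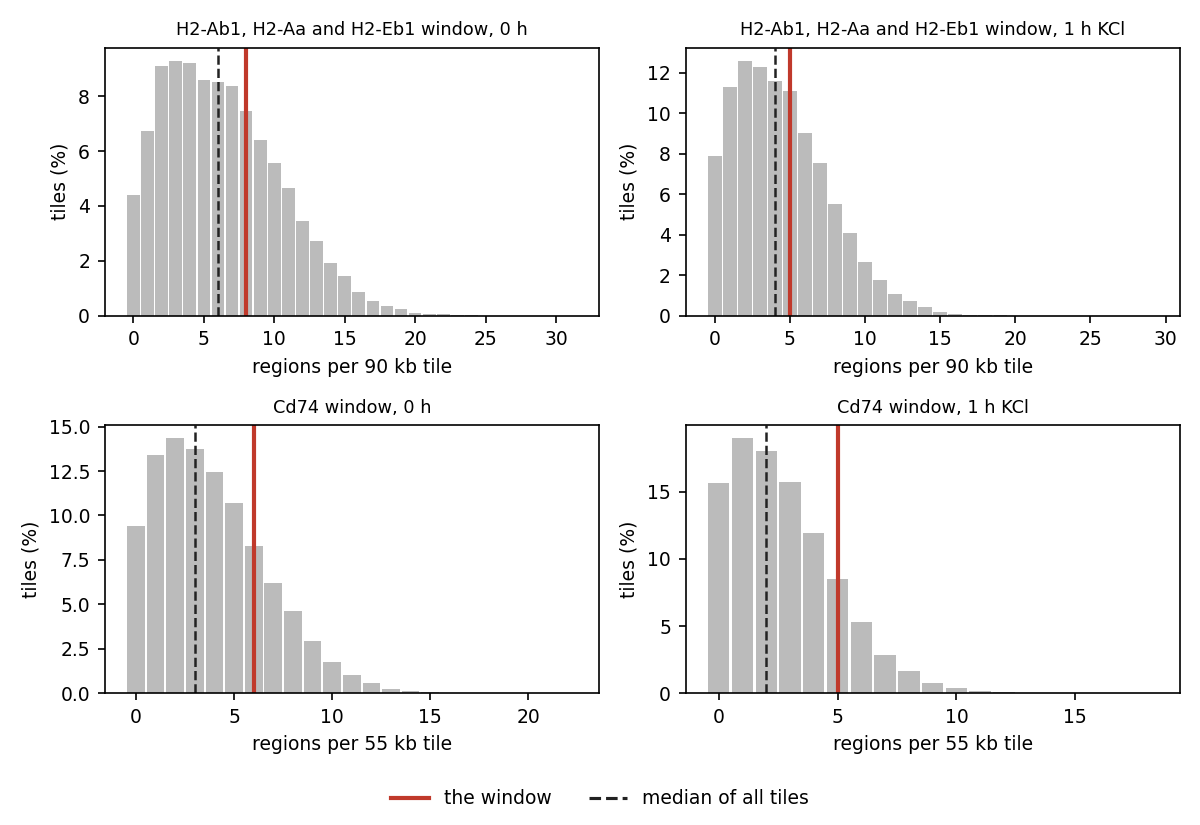
Distribution of the number of listed regions per tile of the window's length on chromosomes 1 to 19, in percent of tiles, at 0 h (left) and 1 h of KCl (right). The solid line is the window (8, 5, 6 and 5 regions) and the dashed line the median of all tiles (6, 4, 3 and 2). The Cd74 window at 1 h lies farther out than the class II chain window.

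The surroundings held similar numbers. In the 10 windows of the same length beside the class II chain window, 5 on each side, the count ran from 3 to 15 at 0 h (median 8) and from 3 to 13 at 1 h (median 7). Beside the Cd74 window it ran from 2 to 14 at 0 h (median 8.5) and from 1 to 9 at 1 h (median 5.5). More regions at 0 h than at 1 h were seen in 6 of the 10 windows beside the class II chains and in 7 of the 10 beside Cd74. Over the genome, 74.2% of 90 kb tiles and 61.7% of 55 kb tiles had fewer regions at 1 h than at 0 h, so a lower count at 1 h is common.

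**Figure D3:**
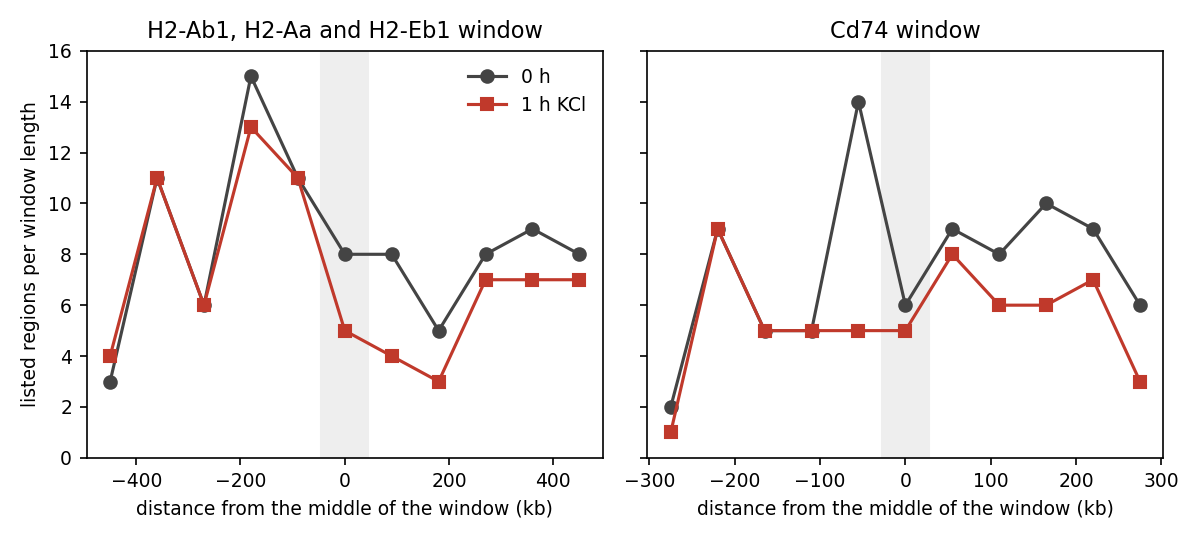
Listed regions per window length in the windows (shaded) and in the 5 windows of the same length on each side, by distance in kb. Circles are 0 h and squares 1 h of KCl. The counts of both windows fall within the range of their neighbours, from 3 to 15 and from 2 to 14 at 0 h.

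In the class II chain window, the site with the best support lay from 34441830 to 34442010 at 0 h. It was 180 bases wide there, with both centres at 34441930. At 1 h it ran from 34441840 to 34441990, a width of 150 bases, with centres at 34441920 and 34441940. No other site of this window had centres in both columns at both times.

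The widest site of the window ran from 34467740 to 34468060 at 0 h, with both centres at 34467900. Its width was 320 bases at 0 h, where 20.8% of the list was as wide or wider, and 260 bases at 1 h (34467770 to 34468030), where only the first column held a centre, at 34467910. A stretch of 25.7 kb without any 0 h region separated it from the site before it. Gaps at least as long made up 15.1% of all gaps between neighbouring 0 h regions, whose median was 8 kb.

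The site from 34409460 to 34409660 was 200 bases wide at both times and moved by 10 bases, to 34409470 and 34409670. Centres were held by both columns at 0 h (34409570 and 34409580) and by the first column only at 1 h (34409590). Another site had a first-column centre alone at each time and measured 210 bases at 0 h (34421340 to 34421550) but 180 at 1 h (34421340 to 34421520). Its centres, 34421440 and 34421390, lay 50 bases apart.

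Of the 8 regions at 0 h in the class II chain window, 4 had no counterpart at 1 h. A first-column centre was held by the region from 34392880 to 34393040 (160 bases). A second-column centre alone was held by the regions from 34400120 to 34400230 (110 bases) and from 34428620 to 34428800 (180 bases). Both columns held a centre, 5 bases apart, in the region from 34435170 to 34435290, which was 120 bases wide. Its nearest 1 h region lay 4640 bases away. Over the whole 0 h list, 40.3% of the 1286 regions of this width with both centres met a 1 h region, so absence at 1 h was the more frequent outcome for such regions.

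The only region listed at 1 h and not at 0 h ran from 34439930 to 34439990 in the class II chain window. It was 60 bases wide, narrower than most of its list, in which 90.1% of regions were as wide or wider. A centre was held by the first column alone, at 34439935, and the nearest 0 h region lay 1840 bases away.

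Of the 6 sites of the Cd74 window, 2 had centres in both columns at both times. The site from 60942720 to 60943090 was the widest of all the regions in either window, at 370 bases, and 10.5% of the 0 h list was as wide or wider. At 1 h it ran from 60942740 to 60943080 (340 bases), and all 4 of its centres lay at 60942900 or 60942910. The other ran from 60964090 to 60964420 at 0 h, and its 1 h region, 60964100 to 60964430, lay 10 bases to the right. It was 330 bases wide at both times, with centres at 60964250 and 60964260 at 0 h and both at 60964260 at 1 h. These sites were thus listed at nearly the same place in all 4 columns.

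At the remaining shared sites of the Cd74 window, the region was narrower at 1 h and only the first column of the 1 h list held a centre. The region from 60955090 to 60955360 measured 270 bases at 0 h, while its 1 h counterpart (60955170 to 60955320) measured 150. From 60961400 to 60961590 the width was 190 bases at 0 h, and 100 bases at 1 h (60961420 to 60961520). The region from 60967100 to 60967310 went from 210 bases to 100 bases (60967150 to 60967250). All 3 held centres in both columns at 0 h, at most 20 bases apart.

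A region of 60 bases, from 60964940 to 60965000, was listed at 0 h only, with a centre in the first column, and the nearest 1 h region lay 510 bases away. No region of any list lay in the last 27.7 kb of the Cd74 window. Just outside that edge, the next region was 7.1 kb beyond it at 0 h and 11.3 kb at 1 h. At the other edge, regions stood 1.79 kb outside and 2.72 kb inside at 0 h. For the class II chain window, the nearest 0 h regions outside stood 6.7 kb and 9.87 kb from its edges, and those inside 7.88 kb and 6.94 kb.

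**Figure D4:**
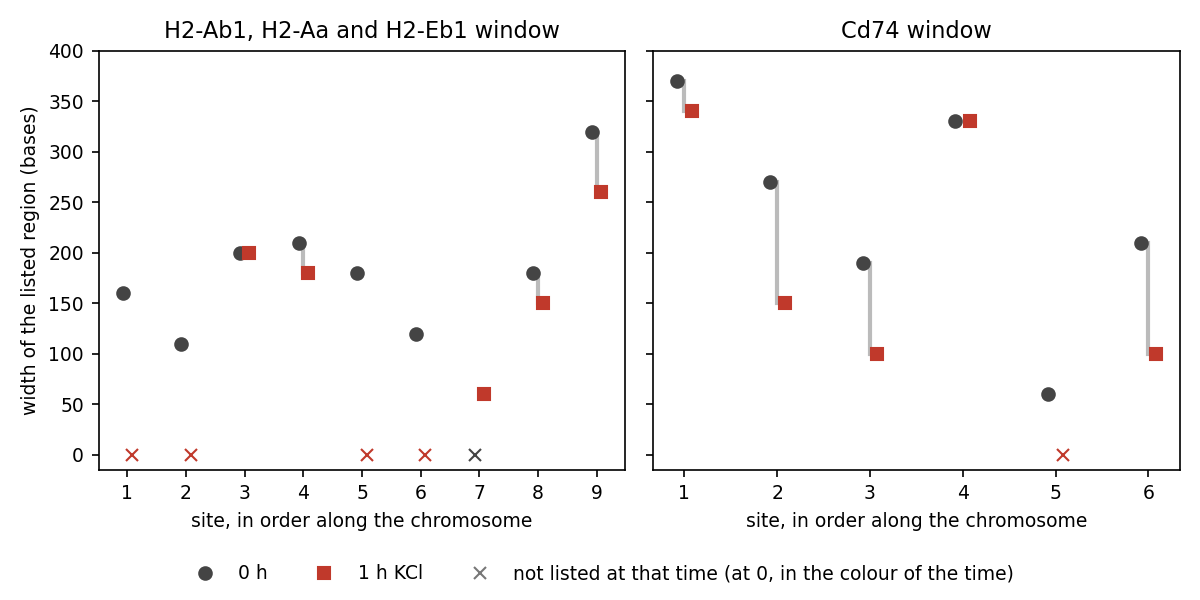
Width in bases of the listed region at each site of the 2 windows, in order along the chromosome, at 0 h (circles) and after 1 h of KCl (squares). Lines join the times, and a cross at 0 marks a time at which the site was not listed. Of the 9 shared sites, 7 were narrower at 1 h, 2 kept their width and 0 were wider.

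Sharing between the times was counted as an overlap of at least 1 base. In the class II chain window, 4 of 8 regions at 0 h were found at 1 h, and in the Cd74 window 5 of 6. Together these were 9 of 14 (64.3%), against 65.4% of the whole 0 h list. In the other direction 4 of 5 and 5 of 5 regions at 1 h were found at 0 h, or 9 of 10, against 93.3% of the whole 1 h list. With so few regions, the shares do not set the windows apart from the lists.

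Over the whole 0 h list, recovery at 1 h was most frequent where each column gave a centre and least frequent where only the second did. The windows showed the same order, but their regions are too few to show anything beyond this property of the list. Of the 0 h regions of both windows with centres in both columns, 8 were found at 1 h and 1 was not, against 84.9% found over the list. Among those with just a first-column centre, 1 was found and 2 were not (41.3% over the list). Both regions with a second-column centre only were missing at 1 h, and over the list 15.9% of such regions were found. The 9 shared 0 h regions had a median width of 210 bases and the 5 unshared ones of 120 bases, against 260 and 100 bases over the list.

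Support by the second column was thin at 1 h. In the class II chain window 4 of 8 regions had both centres at 0 h and 1 of 5 at 1 h, and in the Cd74 window 5 of 6 and 2 of 5. Over the whole lists these shares were 61.0% and 54.8%. Of the 8 shared sites that had both centres at 0 h, 3 had both at 1 h, 5 had the first only and 0 the second only. Over 88798 such pairs in the lists, 72.0% had both centres at 1 h, 23.5% the first only and 4.44% the second only. The share with both at 1 h was thus 3 of 8 here against 72.0% in the lists, a gap that no test was made of, because neighbouring regions share their libraries.

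Counted per column, the class II chain window had 6 and 6 centres at 0 h and 5 and 1 at 1 h. The Cd74 window had 6 and 5 centres at 0 h and 5 and 2 at 1 h. In the first window both 0 h columns exceeded both 1 h columns, and in the second a 0 h column equalled a 1 h column. The means were 6 ± 0 at 0 h and 3 ± 2.83 at 1 h for the class II chains, and 5.5 ± 0.707 and 3.5 ± 2.12 for Cd74 (SD, n = 2 columns each, ranges as given). Two-sided exact permutation tests of 2 columns against 2 gave p = 0.333 for the class II chain window, 0.667 for the Cd74 window and 0.333 for both windows summed (adjusted over these 3 tests by the Benjamini-Hochberg method, 0.5, 0.667 and 0.5). The smallest p this design allows is 0.333, so no difference could pass a threshold of 0.05.

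The low values at 1 h came from 1 column. It held 1 centre of the class II chain window and 2 of the Cd74 window, and it was also the shortest column of the RFX-DN lists, with 74386 centres, against 114659 in the first column at 1 h and 155961 and 122913 at 0 h. Scaled to 100000 centres of each column, both windows together had 7.69 and 8.95 centres at 0 h, and 8.72 in the first and 4.03 in the second column at 1 h. The ratio of the mean number of centres at 0 h to that at 1 h was 2.0 in the class II chain window and 1.57 in the Cd74 window, and 1.48 over the whole lists. The difference of the means, 3 centres for the class II chains and 2 for Cd74, was 5 and 3.5 without the first 1 h column, and 1 and 0.5 without the second. With the first 1 h column left out, only 1 region of the class II chain window and 2 of the Cd74 window remained at 1 h, while leaving out the second removed none. The part that the short column had in the loss of support at these sites was not tested.

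Shared sites were mostly narrower at 1 h, as over the lists. The 1 h region had from 0.476 to 1 times the width of its 0 h counterpart (median 0.833, 9 pairs). The median over 112001 pairs with a single counterpart in each direction was 0.9 (quartiles 0.692 and 1), and 71.0% of the pairs were narrower at 1 h, 8.68% equal and 20.4% wider. By window, the median ratio was 0.845 for the 4 pairs of the class II chains and 0.556 for the 5 pairs of Cd74. For Cd74 it was 0.737 over 4 pairs when both regions had to overlap by 50% of their width or more. A 1 h region under 50% of its counterpart's width cannot meet that rule, so the pair with the ratio 0.476 dropped out. The quartiles of the lists were not computed under that rule, so 0.737 cannot be set against them. Width went with support in the lists. Regions with both centres and with 1 had medians of 270 and 110 bases at 0 h, and 290 and 130 at 1 h. The pairs with ratios 0.476, 0.526 and 0.556 went from both columns to the first only, as did those with 0.8125 and 1. Pairs that kept both had 0.833, 0.919 and 1. The ratios of members and lists were not matched for support. Widths belong to the combined regions, without a value per replicate, so their error is unknown and no test was possible.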

How the data were processed

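ChIP-seq lists of bound regions were used for 3 groups of 2 libraries. The authors deposited each list once per group. Per the file headers, their other columns are Start, End, c1 and c2. The headers do not say what c1 and c2 are. From the values, each is either missing or lies within the region, and both were taken as peak centres. The submitters' processing notes name Bowtie and mm9. Not given in the sources used here are the peak caller, its settings, the merging of libraries and the base (0 or 1) from which positions count. The lists hold no scores or reads, so depth and the precision it gives are unknown. The neurons came from CD-1 mice and mm9 is a C57BL/6J assembly. What sequence differences in these polymorphic genes do to mapping was not tested.

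Regions that overlap a window by at least 1 base were taken, which names all of them, as the naming rule asks for up to 25 per window and list. Tiles ran on chromosomes 1 to 19 from the leftmost to the rightmost region. The listed pathway genes were not placed, since no mm9 annotation was used, and only their promoters were searched. Members, windows and lists were chosen with earlier results of these data known. The overlap code was tested against direct search on a random sample of 0 h regions and randomly shifted copies of them. Python 3.11.15, numpy 2.4.6, pandas 2.3.3, scipy 1.17.1 and matplotlib 3.10.9 were used.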

Additional observations from a re-analysis of the deposited data

How the results depend on the processing

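No paired analysis was possible because the centre columns name no library. Moving the criterion to the region's middle or dropping regions under 50 bases moved no count of either window by over 1.5 times. Nor did cutting the 0 h list to its 122135 widest regions, the length of the 1 h list, a step chosen after seeing the data. The cut kept 0 h regions of 140 bases or more and left the 1 h list whole, with regions down to 10 bases. It could thus lower the 0 h counts only. The class II chain window then held 6 regions at 0 h and 5 at 1 h, and the Cd74 window 5 and 5. Of these 0 h regions, 4 of 6 and 5 of 5 were found at 1 h. Since only 0 h regions could be removed, no conclusion on the difference between the times is drawn from these counts. With only regions that had centres in both columns, the class II chain window held 4 regions at 0 h and 1 at 1 h, of which 1 and 1 met the other list, and the Cd74 window held 2 at 1 h, with 2 found from 0 h and 2 from 1 h. Widening the windows by 10 kb raised the Cd74 counts to 11 at 0 h and 8 at 1 h, with 8 and 8 met in the other list, and the regions with both centres at 1 h in the class II chain window from 1 to 3. Without 1 column of the 1 h list, the 1 h count was 1 to 5 in the class II chain window and 2 to 5 in the Cd74 window. In both it was lowest without the first column, when 1 and 2 of the 0 h regions were found at 1 h. In unscaled counts, the 0 h mean of centres exceeded the 1 h mean under every alternative run. With 1 column left out it did so by 1 to 5 centres for the class II chains and 0.5 to 3.5 for Cd74, least without the second 1 h column. No alternative was run on counts scaled to column length. Per 100000 centres, the Cd74 window had 3.85 and 4.07 at 0 h and 4.36 and 2.69 at 1 h. The class II chain window had 3.85 and 4.88, and 4.36 and 1.34. Scaled, the first 1 h column thus exceeded both 0 h columns for Cd74 and 1 of them for the class II chains. The lists carry no depth, so how weak a site they could still hold is unknown.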
